A study of Bos taurus with 6 samples.

Results

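Olfactory receptor transcripts were examined in RNA of bovine 8-cell embryos. The members were all genes annotated as protein_coding whose symbol is OR followed by 1 or 2 digits and a letter, and 105 of the 18862 genes with values met this rule. The working description of these transcripts places them near the detection floor. The values hold no counts, so the level of that floor is unknown, but 94 of the 105 had a mean under 1 FPKM. The description did not suit OR4X17, which reached 25.2 to 69.8 FPKM, and 10 other members had a mean of 1 to 10 FPKM. The unit of every level given here is FPKM, which divides the fragments of a gene by its length in kb and by the mapped fragments of the library. The libraries numbered 6, with 3 for the control group and 3 for the GSKA group. Embryos of both groups were produced by in vitro fertilization of oocytes from slaughterhouse ovaries, and the labels enter only "female" as the tissue. The GSKA group was cultured after fertilization with 200 pmol/L GSKA, an inhibitor of lactate dehydrogenase A that the study used to lower histone lactylation, and the control group received none. The solvent, DMSO, was kept equal between the groups, cumulus cells were pipetted off and the zona pellucida was removed before lysis. The study names the method single-cell RNA-Seq, but a library here holds RNA of embryo material and no separate cells. The study counts replicates as biological, and the sources used here do not state how many embryos made up a library or whether replicates came from separate cultures. The spread behind each p-value is that of these 6 libraries. The test by gene, limma, also draws on the spread of the other tested genes.

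Olfactory receptors are G protein-coupled receptors that detect odorants in the nose, and they form the largest gene family of mammals. Each olfactory sensory neuron chooses 1 receptor gene and 1 of its alleles while the other copies stay silent in heterochromatin, as shown in mouse. The genes lie in tandem clusters, their coding sequence is uninterrupted by introns, and neighbouring copies of a subfamily can be nearly identical. Class I receptors are the older group, first known from fish, and class II receptors are the group that expanded in land vertebrates. Olfactory receptor transcripts are also known outside the nose, for example in testis.

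The 105 genes comprised 15 of class I and 90 of class II, in 15 families. Each was annotated with 1 transcript. Their loci spanned 894 to 3853 bp with a median of 945 bp, and 99 of the 105 were under 1.2 kb. A length divisible by 3, as a coding length has, was also found for 99. The longer loci, such as OR6E1E and OR4F34, may include introns or untranslated regions. A total of 53 lay on chromosome 15, 11 on chromosome 10, 10 on chromosome 19, 8 on chromosome 8, 7 on chromosome 7 and 6 on chromosome 5. By symbol, 104 of the 105 were found in the RefSeq gene table of the assembly ARS-UCD2.0. That table holds 1070 protein-coding genes of the same name pattern, of which 103 had values here, and the others were not analysed here. Every gene with values was above 0 in at least 1 library, so being above 0 somewhere is a condition of membership and not a result.

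Most members were above 0 in a single library. A total of 68 of the 105 (64.8%) were above 0 in exactly 1 library, 14 in 2, 6 in 3, 6 in 4, 4 in 5 and 7 (6.67%) in all 6. Among the 16742 other protein-coding genes, 9.23% were above 0 in 1 library and 65.8% in all 6. The members were also lower, with a median over genes of the mean FPKM of 0.0496 against 2.04. The difference in spread over libraries was also seen among low genes. Of the 94 members with a mean under 1 FPKM, 72.3% were above 0 in 1 library and 1.06% in all 6, and of the 6619 other protein-coding genes under that mean, 23.3% and 21.6% were. The medians of the mean within these low sets were still unequal, 0.0321 and 0.207 FPKM. Of the 1031 other protein-coding genes with 1 transcript and a locus under 1.2 kb, 18.3% were above 0 in 1 library and 53.8% in all 6. These shares are descriptions without a test, and FPKM keeps no counts, so the depth is unknown and a listed 0 cannot be read as absence.

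**Figure D1:**
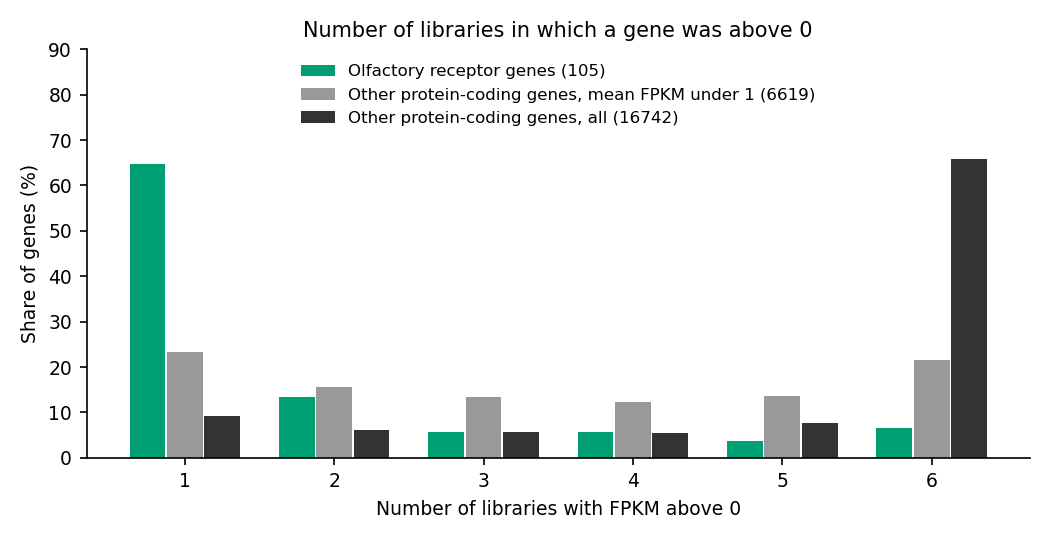
Share of genes (percent) by the number of libraries, from 1 to 6, in which the gene was above 0 FPKM, for olfactory receptors and for other sets of protein-coding genes. Olfactory receptors peak at 1 library (64.8%) and other protein-coding genes at all 6 (65.8%).

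Both classes showed this pattern. Of the class I members, 11 of 15 were above 0 in 1 library, and of the class II members 57 of 90 were. No class I member was above 0 in more than 4 libraries. Among the 68 genes seen in 1 library, the level there ranged from 0.00508 to 4.34 FPKM with a median of 0.0736, and 10 reached 1 FPKM. Over all members and libraries, 200 of 630 values were above 0, 67 of these lay under 0.1 FPKM and 70 were at least 1 FPKM. By the mean over the 6 libraries, 1 member exceeded 10 FPKM, 10 lay between 1 and 10, and 94 lay under 1, of which 61 were under 0.1. The lowest value above 0 that a member had in each library was between 0.00418 and 0.0104 FPKM.

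The number of members above 0 did not separate the groups. Control replicates 1, 2 and 3 had 20, 31 and 41 members above 0, and GSKA replicates 1, 2 and 3 had 33, 38 and 37. The mean was 30.7 ± 10.5 (SD, n = 3) in the control group and 36.0 ± 2.65 (SD, n = 3) in the GSKA group, and the ranges overlap. The same order of libraries gave 13285, 13754 and 14171 protein-coding genes above 0 for the control group and 14004, 14143 and 13472 for the GSKA group. Control replicate 1 was lowest in both counts. A total of 34 members were above 0 only in control libraries, 43 only in GSKA libraries and 28 in both groups. Most of the 34 and 43 were among the 68 members seen in 1 library, which can belong to 1 group only. Control replicates 1, 2 and 3 held 5, 8 and 19 of these 68, and GSKA replicates 1, 2 and 3 held 10, 8 and 18. Of the 1546 other protein-coding genes seen in 1 library, control replicates 1, 2 and 3 held 195, 234 and 318. GSKA replicates 1, 2 and 3 held 291, 318 and 190 of them. The 34 and 43 themselves were not counted for other genes, so they are no sign of detection specific to a group. No member was above 0 in all 3 libraries of one group and at 0 in all 3 of the other. Any 2 libraries of the same group shared 10 to 19 members (26.8% to 58.1% of the members of one or the other library), and any 2 libraries of different groups shared 10 to 19 (27.0% to 70.0%).

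Summed over all members, FPKM was 48.1, 72.7 and 69.6 in control replicates 1, 2 and 3 and 118, 96.0 and 62.2 in GSKA replicates 1, 2 and 3. The means were 63.5 ± 13.4 (SD, n = 3) and 92.2 ± 28.2 (SD, n = 3), and GSKA replicate 3 lay within the control range. Olfactory receptors made up 0.00828% to 0.0215% of all FPKM in a library. A cluster of 8 members on chromosome 15, drawn with the levels in view as the adjoining OR4B, OR4X and OR4S genes, supplied most of this sum. Its share of the olfactory receptor FPKM was 91.8%, 82.5% and 77.5% in the control group, against 74.1%, 61.9% and 68.0% in the GSKA group. The next member, OR4C45, started only 27282 bp beyond OR4X2B, and the whole run of 15 members with gaps under 500 kb took 91.8%, 88.3% and 78.8% in control replicates 1, 2 and 3 and 74.1%, 64.4% and 68.7% in GSKA replicates 1, 2 and 3. The members outside the cluster summed to 3.94, 12.7 and 15.7 FPKM in the control group, against 30.6, 36.6 and 19.9 FPKM in the GSKA group. The GSKA libraries were higher than all controls in this remainder, which is given without a test because it is a score over members. It includes genes seen in a single library. The OR2C genes gave 4.89 FPKM of it in GSKA replicate 3 alone, and the OR5AN genes 2.28 FPKM in control replicate 3 alone.

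**Figure D2:**
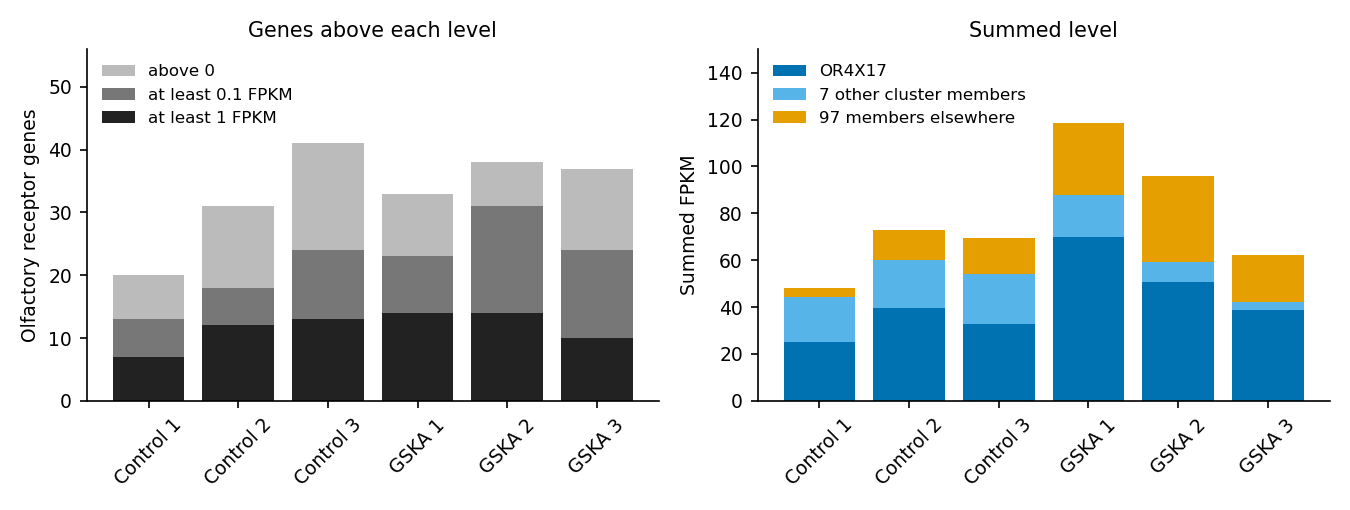
Number of the 105 olfactory receptor genes above 0, at least 0.1 and at least 1 FPKM in each library, drawn as overlaid bars from 0 (left) and their summed FPKM in each library, divided into OR4X17, the other members of the chromosome 15 cluster and the members elsewhere (right). Control replicate 1 has the fewest genes above 0 (20) and GSKA replicate 1 the highest sum (118 FPKM).

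The 8 clustered members, all on the plus strand, occupied 130183 bp of chromosome 15 in the coordinates of the authors' files, whose build none of the sources used here names. In order along the chromosome they were OR4B1, OR4B1H, OR4B1F, OR4X2, OR4S1, OR4X16, OR4X17 and OR4X2B. The first started at 77899334, 38136 bp beyond the end of PTPRJ, a receptor tyrosine phosphatase gene that lay between 1.47 and 3.16 FPKM. OR4X17 lay at 78006018 to 78006947 and OR4X2B at 78028587 to 78029516, 21640 bp apart. OR4B1GP, annotated as a pseudogene and therefore no member, lay between them. It had 3.64, 7.47 and 5.72 FPKM in the control group, against 3.12, 2.89 and 4.01 FPKM in the GSKA group. No other gene with values overlapped these 8 loci, and genes without values were not checked. The strandedness of the counting and the treatment of fragments that match several copies are not stated in the sources used here, so the division of FPKM among similar neighbours is uncertain.

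**Figure D3:**
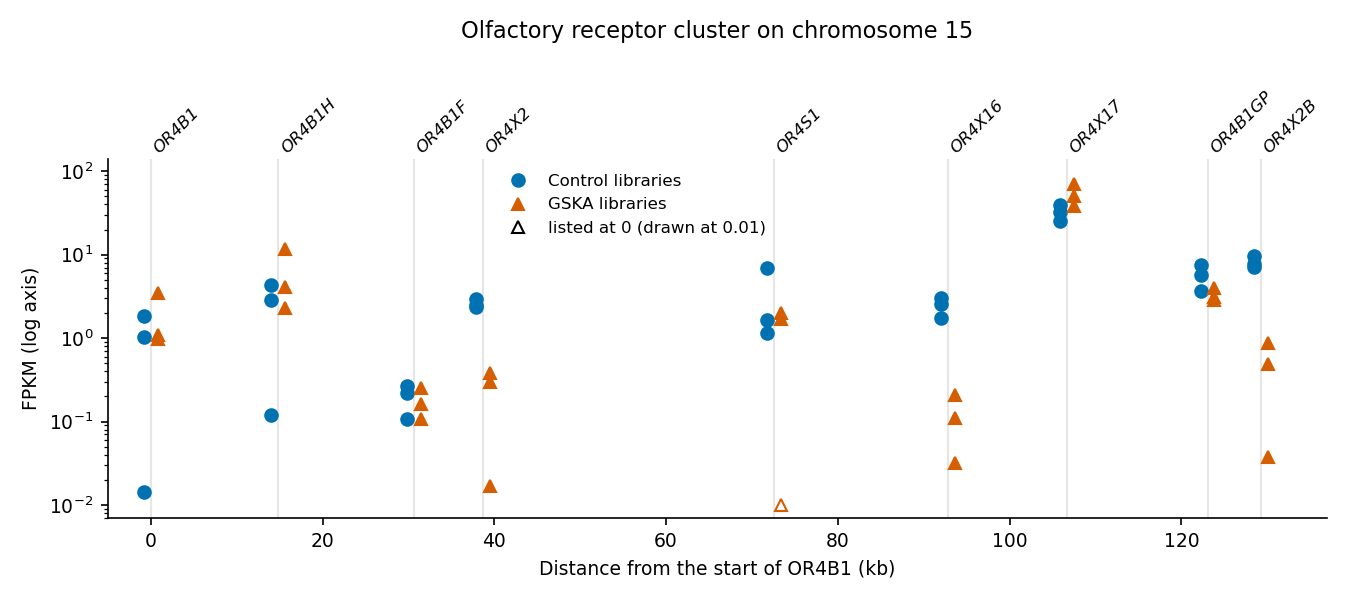
FPKM on a log axis in each control library (circles) and GSKA library (triangles) at the 8 clustered members and the pseudogene OR4B1GP, against distance in kb from the start of OR4B1. Circles lie above all triangles at OR4X2, OR4X16 and OR4X2B, while the values of both groups overlap at OR4X17 between them.

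OR4X17 was the most abundant member in every library. Its level was 25.2, 39.7 and 32.9 FPKM in control replicates 1, 2 and 3 and 69.8, 50.6 and 38.8 FPKM in GSKA replicates 1, 2 and 3. GSKA replicate 3 lay under control replicate 2, so the groups overlap. The means were 32.6 ± 7.26 and 53.1 ± 15.6 (SD, n = 3 each), 1.63-fold higher in the GSKA group. The difference did not pass limma's test after adjustment over all genes (log2 fold change 0.67, SE 0.29, adjusted p = 0.329).

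OR4X2B had 7.74, 7.18 and 9.77 FPKM in control replicates 1, 2 and 3 and 0.495, 0.878 and 0.0376 FPKM in GSKA replicates 1, 2 and 3. All 3 controls lay above all 3 GSKA libraries, which were each under 1 FPKM. The means were 8.23 ± 1.36 and 0.470 ± 0.421 (SD, n = 3 each), 17.5-fold lower in the GSKA group. On the log2(FPKM + 1) scale, which understates the change of low genes, OR4X2B fell by 2.68 (SE 0.39, limma with Benjamini-Hochberg adjusted p = 0.0114). Only the controls brought OR4X2B to the filter of the test, at least 1 FPKM in at least 3 libraries. OR4X2B therefore had to differ in order to be tested, and its adjusted p is no separate support for the difference. The exact two-sided permutation test of its mean gave p = 0.1, the smallest that 3 against 3 libraries allow. The limma call was lost without GSKA replicate 1 (adjusted p = 0.0769), without GSKA replicate 3 (adjusted p = 0.0902) and when genes of every level were tested (adjusted p = 0.234). In bulk RNA, fewer embryos or cells with a transcript and less transcript in each cannot be told apart.

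Both remaining OR4X members were also lower in every GSKA library, without passing the adjusted test. Like OR4X2B, both reached the filter of the test only through the controls. OR4X2 had 2.39, 2.51 and 2.91 FPKM in the control group, against 0.294, 0.377 and 0.0167 FPKM in the GSKA group, 11.3-fold lower by the means (limma log2 fold change -1.56, SE 0.37, adjusted p = 0.101). OR4X16 had 1.75, 3.00 and 2.56 FPKM in the control group, against 0.210, 0.110 and 0.0316 FPKM in the GSKA group, 20.8-fold lower by the means (limma log2 fold change -1.61, SE 0.38, adjusted p = 0.0968). As at OR4X2B, GSKA replicate 3 was the lowest library at both genes. These 3 genes together had 11.9, 12.7 and 15.2 FPKM in the control group, against 0.998, 1.37 and 0.0859 FPKM in the GSKA group.

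OR4X17 made up most of the sum of the OR4X subfamily, so that sum could not show the fall of the others. All 4 OR4X members together had 37.1, 52.4 and 48.2 FPKM in control replicates 1, 2 and 3 and 70.8, 52.0 and 38.9 FPKM in GSKA replicates 1, 2 and 3. The means were 45.9 ± 7.91 and 53.9 ± 16.0 (SD, n = 3 each), and the groups overlap. The shares of the sum differed between the groups, but they restate the levels of the same 4 genes. OR4X17 took 68.0%, 75.8% and 68.4% of the sum in the control group, against 98.6%, 97.4% and 99.8% in the GSKA group. OR4X2B took 20.9%, 13.7% and 20.3% in the control group, against 0.699%, 1.69% and 0.0968% in the GSKA group. The ratio of OR4X17 to OR4X2B was 3.25, 5.53 and 3.37 in the control group, against 141, 57.6 and 1031 in the GSKA group. Whether fragments were assigned differently between these copies was not tested.

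**Figure D4:**
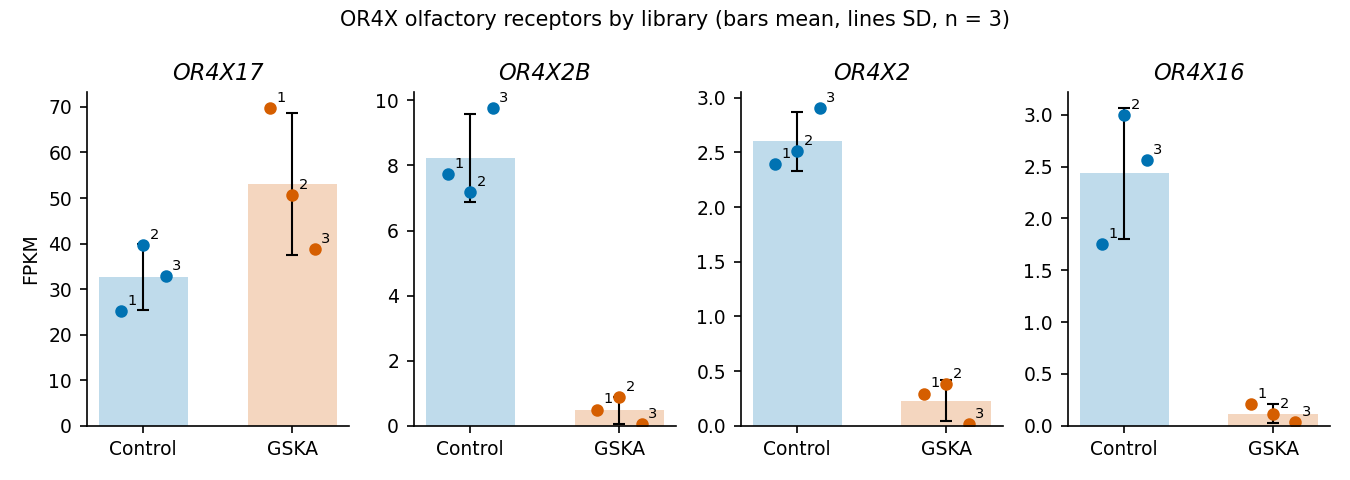
FPKM of the 4 OR4X genes, 1 panel per gene with its own linear axis from 0, where points are libraries numbered by replicate, bars are the group mean and lines the SD (n = 3). OR4X2B, OR4X2 and OR4X16 are set apart between the groups, with OR4X2B at 7.18 to 9.77 FPKM in the controls and 0.0376 to 0.878 FPKM in the GSKA libraries, and OR4X17 overlaps.

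The OR4B and OR4S1 members of the cluster overlapped between the groups. OR4B1H had 0.119, 4.32 and 2.89 FPKM in the control group, against 11.7, 4.06 and 2.30 FPKM in the GSKA group. OR4B1, its neighbour, had 0.0143, 1.84 and 1.04 FPKM in the control group, against 3.46, 1.08 and 0.987 FPKM in the GSKA group. Control replicate 1 was the lowest library and GSKA replicate 1 the highest at both genes. OR4S1 had the opposite extreme, with 6.91, 1.14 and 1.63 FPKM in the control group, against 1.69, 1.99 and 0 FPKM in the GSKA group. OR4B1F was low and even, with 0.106, 0.266 and 0.222 FPKM in the control group, against 0.107, 0.252 and 0.161 FPKM in the GSKA group. It was 1 of the 7 members above 0 in all 6 libraries, and the only one of them with a mean under 1 FPKM. The adjusted p of limma was 0.484 for OR4B1H, 0.665 for OR4B1 and 0.567 for OR4S1, and OR4B1F was too low to be tested.

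Outside the cluster, OR9I2 was the member with the highest mean. On chromosome 15, it had 0.504, 0.814 and 0 FPKM in control replicates 1, 2 and 3 and 3.13, 8.90 and 1.96 FPKM in GSKA replicates 1, 2 and 3. Every GSKA library was above every control, and only the GSKA libraries brought OR9I2 to the filter of the test. The means were 0.439 ± 0.411 and 4.66 ± 3.71 (SD, n = 3 each), and the difference did not pass the adjusted test of limma (log2 fold change 1.82, SE 0.48, adjusted p = 0.128). OR9I2 and OR9Q6 were the only members whose loci overlap another gene with values, ENSBTAG00000021375 on the opposite strand. That gene had 0.0778, 0 and 0.0643 FPKM in the controls and was listed at 0 in the 3 GSKA libraries.

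A pair of class I genes on chromosome 15 passed the filter on level. OR51E1, known in humans as a receptor for fatty acids that is also expressed in prostate, had 1.25, 0 and 2.08 FPKM in the control group, against 2.14, 1.91 and 0 FPKM in the GSKA group. OR51D1, its neighbour in the same run of genes, had 0, 2.82 and 1.02 FPKM in the control group, against 0.0481, 2.69 and 0 FPKM in the GSKA group. For each of these genes, each group held 1 library listed at 0. OR2T29, a class II gene on chromosome 7, had 0.110, 1.03 and 1.68 FPKM in the control group, against 0, 0.747 and 1.98 FPKM in the GSKA group, which overlap. The adjusted p of limma was 0.942 for OR51E1, 0.851 for OR51D1 and 0.969 for OR2T29.

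Several members with a mean near 1 FPKM owed it to 1 or 2 libraries. OR2AJ9, on chromosome 7, was listed at 0 in the 3 controls and had 6.61, 0.575 and 0 FPKM in the GSKA libraries. OR4A2M, on chromosome 15, was at 0, 2.75 and 0 FPKM in the control group, against 0, 2.44 and 0.422 FPKM in the GSKA group. Neither was above 0 in all libraries of a group. The 6 OR1E genes on chromosome 19 summed to 0, 1.98 and 1.48 FPKM in the control group, against 4.17, 4.17 and 1.79 FPKM in the GSKA group. OR1E2 had 0, 0.0924 and 0.523 FPKM in the control group, against 3.82, 0.165 and 0 FPKM in the GSKA group, while OR1E2B had 0, 1.73 and 0.204 and then 0.0890, 2.51 and 0 FPKM. OR1E1G differed again, with 0, 0.0872 and 0.729 FPKM in the control group, against 0.220, 1.42 and 1.79 FPKM in the GSKA group, so the leading OR1E gene was another one in GSKA replicates 1, 2 and 3.

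The 6 OR13J genes on chromosome 8 were lower still, with sums of 0.280, 0.0986 and 0.637 FPKM in the control group, against 0, 1.19 and 1.08 FPKM in the GSKA group. OR13J1F had 0, 0.0128 and 0.0384 FPKM in the control group, against 0, 0.180 and 0.0670 FPKM in the GSKA group. OR13J1 had 0, 0.0167 and 0.0205 FPKM in the control group, against 0, 0.00637 and 0.151 FPKM in the GSKA group. Both were above 0 in 4 libraries, the same 4 for each gene, at levels that a limit of 0.1 FPKM would mostly remove.

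Some neighbouring genes of a subfamily were above 0 in the same library. All 5 OR5AN genes, on chromosome 15, were above 0 in control replicate 3 and in no other library, with a sum of 2.28 FPKM there. The 5 OR6C genes of chromosome 5 were above 0 in GSKA libraries only, with sums of 2.07, 2.80 and 0.210 FPKM over 3, 3 and 2 genes. The 5 OR6E genes of chromosome 10 were above 0 in GSKA replicate 2 (0.927 FPKM over 2 genes) and GSKA replicate 3 (2.76 FPKM over 4 genes). Both OR2C genes, on chromosome 7, were above 0 in GSKA replicate 3 alone, at 4.89 FPKM together, as were all 4 OR51L genes of chromosome 15, at 0.687 FPKM. The 4 OR4C genes of chromosome 15 were above 0 in controls only, with 1, 2 and 2 genes in control replicates 1, 2 and 3. The OR4C gene of control replicate 1, OR4C146, starts at 764415 and is no neighbour of the others, which start at 78056798 to 78364680. The 3 OR5B genes were also above 0 in controls only, with 1, 0 and 2 genes. Of the 14 subfamilies with at least 3 members, 3 were above 0 in controls only, 3 in GSKA libraries only and 8 in both. With 2-member subfamilies included, the counts were 3, 5 and 9 of 17, and near-identical copies can share fragments. These counts have no comparison set, and a member above 0 in 1 library falls in one group by necessity. OR4A47AA and OR4A47U had the same value in control replicate 3, 0.00949 FPKM.

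For the comparison of the groups across genes, 11 of the 105 members (10.5%) reached 1 FPKM in at least 3 libraries and were tested among 10654 genes, while 60.5% of other protein-coding genes reached that level. One member, OR4X2B, passed an adjusted p of 0.05, in the lower direction, and 14 of all tested genes (0.131%) passed in that direction, with 24 (0.225%) in the higher one. In either direction 38 (0.357%) passed, and all 38 (0.357%) also changed by at least 2-fold. At an unadjusted p under 0.05, 3 of the 11 were lower, against 4.03% of all tested genes, and 2 were higher, against 9.40%. When genes of every level were fitted, 5 of the 105 members had an unadjusted p under 0.05 and 8.82% of all genes did. The groups did not overlap at 3 members that were lower in the GSKA group (6.45% of all tested genes) and at 1 that was higher (12.9%). OR4X2B, OR4X2 and OR4X16 reached the filter only through the controls and OR9I2 only through the GSKA libraries, so these 4 had to differ in order to be tested and the counts are no support for a shared direction. The median log2 fold change of the 11 was -0.07, and that of all tested genes 0.09.

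**Figure D5:**
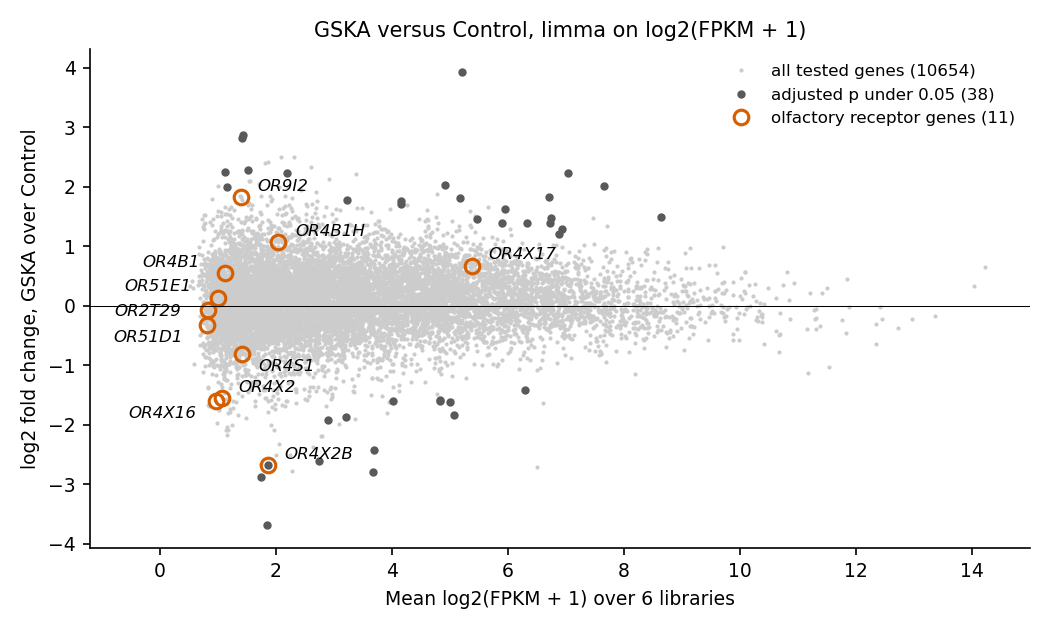
Log2 fold change of the GSKA group over the control group against the mean log2(FPKM + 1) over 6 libraries for the 10654 genes tested with limma, with the 11 olfactory receptors ringed and genes with an adjusted p under 0.05 in dark grey. OR4X2B, at -2.68, is the 1 ringed gene that passed, and the other ringed genes, except OR4X17, lie at the low end of the levels.

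The partners of olfactory receptors in the nose were mostly low or unevenly seen. Of the olfactory signalling list, 14 of 18 genes had values and 4 were tested, of which 0 passed in either direction, with a median log2 fold change of -0.19. GNAL, the G protein subunit that couples odorant receptors to adenylyl cyclase, had 0.0375, 0 and 0.0483 FPKM in the controls and was listed at 0 in the GSKA libraries. ADCY3, the adenylyl cyclase of olfactory cilia, had 0.713, 1.98 and 1.59 FPKM in the control group, against 0.915, 0.801 and 0.354 FPKM in the GSKA group, which overlap. The G protein subunit GNB1 lay between 17.4 and 29.1 FPKM, and RIC8B, which assists the folding of G protein subunits, between 0.619 and 3.92 FPKM.

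A further list held genes known in mouse for the choice of 1 receptor and for carrying receptors to the cell surface. Of this list 28 of 30 had values and 23 were tested, with 0 passing in either direction and a median log2 fold change of -0.14. LHX2, a transcription factor that binds receptor gene enhancers, had 0.745, 1.51 and 1.14 FPKM in the control group, against 1.34, 1.09 and 1.93 FPKM in the GSKA group. RTP1, a transporter of receptors to the membrane, had 0 to 1.32 FPKM in the controls and 0.677 to 1.63 FPKM in the GSKA libraries. The ranges overlap for both. The most abundant members were DDIT3, a stress-response transcription factor, at 476 to 605 FPKM, the heterochromatin protein CBX5 at 190 to 304 FPKM and the nuclear lamina receptor LBR at 43.0 to 77.4 FPKM.

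Other chemoreceptors were as sparse. All 4 with values, TAAR5, TAS1R2, TAS2R3 and TAS2R4, were above 0 in 1 library each, with 0.0175 to 1.35 FPKM there. TAAR5 is a trace amine receptor and the others are taste receptors. The 3 keratin-associated protein genes KRTAP13-1, KRTAP1-1 and KRTAP9-1 were also above 0 in 1 library each. Of 4 defensin genes, DEFB123 and DEFB were above 0 in all 6 libraries, and TAP was above 0 in 4.

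Markers of the embryo were present in every library. Of 12 oocyte and embryo markers, 11 had values and exceeded 1 FPKM in all 6 libraries, with sums of 1007 to 2157 FPKM. The oocyte growth factor BMP15 and the transcription factor KLF17 led this list, and the maternal-effect gene KHDC3L, also among its 3 highest, rose in the GSKA group (limma log2 fold change 1.46, adjusted p = 0.0348). Of 12 olfactory sensory neuron markers 8 had values, with sums of 2.07 to 5.26 FPKM in the controls and 2.17 to 4.61 in the GSKA libraries. OMP and CNGA2, which define these neurons, had no values under these symbols. Marker sums of cumulus and sperm cells did not overlap between the groups. The 8 of 10 cumulus markers with values summed to 9.20 to 22.3 FPKM in the controls and 26.6 to 30.1 in the GSKA libraries. The 9 of 10 sperm markers with values summed to 5.78 to 9.23 FPKM in the controls and 13.4 to 14.2 in the GSKA libraries. Not every marker followed its sum. The cumulus markers PTX3, AMH and INHBA and the sperm markers ODF2 and SPATA18 had lower means in the GSKA group, and the others had higher means. HSD3B1, part of the cumulus sum, was at 0 in the controls and in GSKA replicate 1. No single cumulus or sperm marker passed the adjusted test of limma, with 3 of each list tested, and the highest were TNFAIP6, HAS2 and VCAN for cumulus and ODF2, CRISP2 and TNP2 for sperm. The sperm protamine PRM1 was at 0 in 5 of the 6 libraries, and TNP1 was at 0 in the 3 controls and in GSKA replicate 2. Of 7 blood markers 4 had values, with sums of 7.24 to 12.8 FPKM in the controls and 2.58 to 8.26 FPKM in the GSKA libraries. The part of these cells in the levels of OR4X2B or of the members outside the cluster was not tested. All FPKM of a library summed to 497035 to 581839, and mitochondrial genes took 13.2% of it in control replicate 1 and 5.31% to 7.26% in the rest.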

How the data were processed

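The authors deposited FPKM values per gene for each library, made from SMART-Seq v4 libraries by trimming (cutadapt 1.9), alignment (HISAT2 2.0.4) and assembly (StringTie 1.3.4d), tools that the submitters' processing notes name. None of the sources used here names the genome build. The authors' table of differential expression from edgeR (fold changes, p-values and q-values) was not used. FPKM hold no counts, so depth and counting error are unknown.

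The members, gene lists and settings were chosen with earlier results of these data known. Groups were compared with limma 3.58.1 in R 4.3.3 on log2(FPKM + 1) with an intensity trend, for genes with at least 1 FPKM in at least 3 libraries. The Benjamini-Hochberg adjustment ran over all tested genes, and calls were made at an adjusted p under 0.05. The script was tested on simulated data drawn as normal log2 values of the filtered genes, so members below the filter were not covered.

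Genes were named if they passed this filter, were above 0 in at least 4 libraries, were among the 12 highest means or 6 highest single values, were OR4X2B, or were among the 3 highest of a list. One gene that this rule takes from a list is not reported here. A further clause, for members separated in a fit without the filter, added none. The pseudogene, PTPRJ, the OR5AN, OR6C, OR6E, OR2C, OR51L, OR4C, OR5B and OR4A47 genes, OR6E1E, OR4F34, OR9Q6, the bounds of the cluster, GNAL, ADCY3, LHX2, RTP1 and single markers were chosen after their values were seen. Sequence identity between copies was not analysed here.

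Alternatives covered the pseudocount, filter, scaling, variance model, detection limit, replicate block and each library left out.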

Additional observations from a re-analysis of the deposited data

How the results depend on the processing

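The 38 genes called became 15 with a pseudocount of 0.1, 21 with median scaling, 19 with the replicate block, 7 without the intensity trend, 0 without a filter (1664 at an unadjusted p under 0.05 in limma) and 0 with FPKM above 0 in 3 libraries (1712 at an unadjusted p under 0.05). They ranged from 4 (without GSKA replicate 3) to 42 when 1 library was left out, with 6 without GSKA replicate 1, 10 without GSKA replicate 2 and 24 without control replicate 2. OR4X2B was negative in all 16 alternatives and called in 11. It was not called with a pseudocount of 0.1 (-4.26, adjusted p = 0.0588), without a filter (-2.68, adjusted p = 0.234) or with FPKM above 0 in 3 libraries (-2.68, adjusted p = 0.114), where members called numbered 0 in place of 1. With 1 library left out, OR4X2B lay between -2.88 and -2.45, and members called between 0 and 1. An arm of 2 libraries then shares the spread of the other. OR4X2, OR4X16, OR4X17 and OR9I2 kept their sign in all 16 alternatives and were called in 0. With 1 library left out, log2 fold changes of 3 genes that were not called changed sign: OR2T29 ranged from -0.46 to 0.32, OR51D1 from -0.95 to 0.14 and OR51E1 from -0.33 to 0.67. The cause of these changes was not tested.

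No pairing by replicate number was seen, though 3 libraries per group are too few to exclude one. Same-numbered libraries had correlations of -0.08, 0.14 and -0.12, and 2 of 6 libraries correlated best with their own number. With the replicate block, OR4X2B stayed called (adjusted p = 0.0301).

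Members detected in any library numbered 105 above 0, 65 at 0.1 FPKM or more and 34 at 1 FPKM or more. Per library the control mean of 30.7 became 18.3 and 10.7, and the GSKA mean of 36.0 became 26.0 and 12.7. On a TPM scale the member sums averaged 118 in the control group and 169 in the GSKA group, so their order was the same as in FPKM.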
